A study of Mus musculus with 12 samples.

Results

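Carboplatin is a platinum drug that forms adducts and crosslinks in DNA, and the comparison described here asked which genes differed in the optic nerve of treated mice. It set carboplatin libraries 1 to 3 against PBS libraries 1 to 3, the phosphate-buffered saline controls that stand before them in the table of counts. These were 6 of the 12 libraries of the series, grouped by their treatment label, and all expressed genes were taken. Of the 35275 genes listed, 17314 passed the filter on low counts with all 6 libraries. PBS 1 held RNA of skeletal muscle, so each result was computed a second time with PBS 2 and 3 as the controls, where 17675 genes passed.

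Each library held poly(A) RNA from optic nerve of mice. Treated and control mice alike carried the label NF1, the gene of neurofibromatosis type 1, in which gliomas of the optic pathway can arise. The allele, any Cre driver, the strain, sex and age of the mice, the dose and schedule of carboplatin and the time of collection are details not given in the sources used here. Whether the 3 libraries of either group stand for different mice is not stated either, so p-values measure the spread between these libraries, which may be technical in part.

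The optic nerve holds the axons of retinal ganglion cells together with oligodendrocytes, which wrap them in myelin, astrocytes, microglia and blood vessels. Damaged DNA activates the transcription factor p53, which induces genes that stop the cell cycle, such as Cdkn1a, and genes that start apoptosis, such as Bbc3. Glucocorticoid hormones act through a nuclear receptor on genes such as Fkbp5 and Tsc22d3, metallothioneins bind zinc, copper and platinum and are induced through the factor MTF1, and class II major histocompatibility (MHC) genes are switched on together by the coactivator Ciita.

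Promoters are shown for Mt1 and Mt2, whose levels in carboplatin stood above every control, and for H2-Aa and H2-Eb1, whose levels stood below every control, because each pair lies in a gene cluster with a known shared regulator. The sequences are those of RefSeq on build GRCm38.p6, from 250 bases before to 50 bases after the start of the gene, printed 5′ to 3′ on the strand of the gene. In the metallothionein promoters the capitals mark matches on either strand to the metal response element core, searched as TGCGCNC or TGCACNC. The window of Mt1 lies at chr8:94178839-94179138 on the plus strand and holds 3 matches, and that of Mt2 at chr8:94172368-94172667 on the plus strand holds 4.
Mt1: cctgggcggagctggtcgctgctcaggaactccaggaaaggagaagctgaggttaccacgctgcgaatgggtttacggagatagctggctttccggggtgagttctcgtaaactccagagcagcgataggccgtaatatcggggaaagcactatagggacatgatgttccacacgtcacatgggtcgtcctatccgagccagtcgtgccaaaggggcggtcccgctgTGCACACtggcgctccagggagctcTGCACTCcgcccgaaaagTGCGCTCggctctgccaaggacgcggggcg
Mt2: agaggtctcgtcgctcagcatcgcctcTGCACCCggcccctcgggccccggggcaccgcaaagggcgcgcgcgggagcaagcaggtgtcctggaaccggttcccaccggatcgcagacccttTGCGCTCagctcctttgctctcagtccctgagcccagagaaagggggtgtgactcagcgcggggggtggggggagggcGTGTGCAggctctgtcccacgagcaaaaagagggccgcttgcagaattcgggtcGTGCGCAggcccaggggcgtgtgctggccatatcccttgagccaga
In the class II promoters the capitals mark CCAAT or its reverse complement, the core of the Y box to which the factor NF-Y binds. The window of H2-Aa lies at chr17:34287774-34288073 on the minus strand and holds 1 match, and that of H2-Eb1 at chr17:34305617-34305916 on the plus strand holds 2.
H2-Aa: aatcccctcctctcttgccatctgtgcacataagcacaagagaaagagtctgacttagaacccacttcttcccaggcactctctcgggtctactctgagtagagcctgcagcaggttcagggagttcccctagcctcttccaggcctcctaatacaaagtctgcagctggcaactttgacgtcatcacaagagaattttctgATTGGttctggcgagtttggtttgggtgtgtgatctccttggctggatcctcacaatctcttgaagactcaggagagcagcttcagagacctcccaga
H2-Eb1: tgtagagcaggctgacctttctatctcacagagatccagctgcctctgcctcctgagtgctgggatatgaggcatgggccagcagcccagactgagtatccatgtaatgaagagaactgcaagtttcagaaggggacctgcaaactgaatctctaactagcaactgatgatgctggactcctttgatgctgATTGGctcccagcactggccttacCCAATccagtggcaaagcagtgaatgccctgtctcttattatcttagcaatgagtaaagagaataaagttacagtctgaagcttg
A metal response core stood in 25.7% of all 32851 promoters of this length and in 4 of the 7 promoters found for metallothionein and zinc genes. A CCAAT box stood in 37.4% of all promoters and in 7 of the 8 promoters of class II genes. These shares describe letters in a window and not bound sites.

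The libraries held between 22558698 and 33375754 counts. Mbp, which encodes myelin basic protein, was the gene with the most counts in every library but PBS 1, where the mitochondrial gene mt-Co1 led. A list of 16 myelin genes took 5.30% to 8.58% of the counts of the other 5 libraries and 2.19% of PBS 1, and a list of 24 skeletal muscle genes took 8.71% of PBS 1 against 0.0274% to 0.349% of the others. In log2 counts-per-million (CPM) PBS 1 correlated with the other libraries at 0.766 to 0.846, and those with each other at 0.925 to 0.972. PBS 1 and carboplatin 1 held 0 counts of the Y-linked genes listed, unlike the other 4 libraries. Photoreceptor genes took 0.105% and 0.182% of carboplatin 1 and 3 and at most 0.0206% of the other libraries, and pigment cell genes took 0.159% of carboplatin 2 and at most 0.0227% elsewhere. The part of these tissues in the results was not tested beyond the values given beside them.

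**Figure D1:**
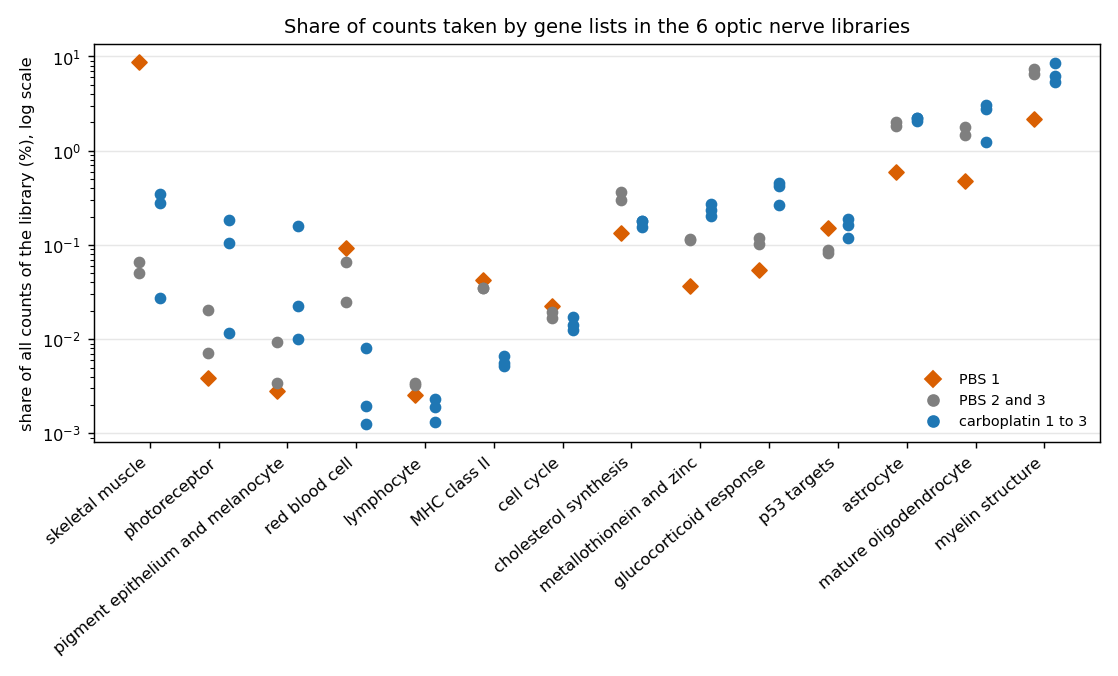
Share of all counts of a library (percent, log scale) taken by 14 gene lists, with a diamond for PBS 1, grey points for PBS 2 and 3 and blue points for carboplatin 1 to 3. PBS 1 stands at 8.71% for skeletal muscle, and the carboplatin libraries stand above every PBS library for glucocorticoid response and metallothionein genes and below them for MHC class II and red blood cell genes.

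Few genes passed the test while PBS 1 was among the controls, and most genes called without it were higher in carboplatin. At an adjusted p under 0.05 in edgeR's quasi-likelihood test, 4 genes rose with all 6 libraries (0.0231% of the genes tested) and 0 fell (0%). At an unadjusted p under 0.05 these counts were 807 higher (4.66%) and 737 lower (4.26%), and DESeq2 called 369 higher (2.2%) and 193 lower (1.15%). Without PBS 1, edgeR called 75 genes higher (0.424%) and 17 lower (0.0962%), and 80 of the 92 differed by at least 2-fold. There an unadjusted p under 0.05 gave 1633 higher (9.24%) and 1478 lower (8.36%), and DESeq2 956 higher (5.74%) and 697 lower (4.19%). The 4 genes called with all 6 libraries were among the 92.

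With PBS 1 counted as well, 73 of these 92 genes had all 3 carboplatin libraries above or below all 3 PBS libraries. Over all genes, 10.1% stood above and 7.68% below in this way. The 92 genes had been called on PBS 2 and 3 and the carboplatin libraries, so only PBS 1 was new to this check. The sign of the log2 fold change was the same in both fits for 89 of the 92, the others being Ccng1, Pxmp2 and Idh2, the last named after its values were seen. PBS 4 to 6, controls that entered neither fit, gave a comparison with the same carboplatin libraries. There 71 of the 75 higher genes stood above all of PBS 4 to 6 and 17 of the 17 lower genes below them. Over all genes these shares were 24.2% and 21.8%. The 92 genes had been called on these same carboplatin libraries and the other genes had not, so the comparison is no independent support. The list of 92 rested on few libraries: none was called without PBS 2, 22 were called without PBS 3, and without carboplatin 1, 2 or 3 the count was 6, 92 and 12, always with the same sign. In what follows, values are CPM scaled with TMM factors, PBS 1 to 3 first and carboplatin 1 to 3 after them, and "rose" or "fell" refers to edgeR's adjusted p, computed without PBS 1 unless stated. A log2 fold change given alone is the value without PBS 1, and it had the same sign with PBS 1.

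**Figure D2:**
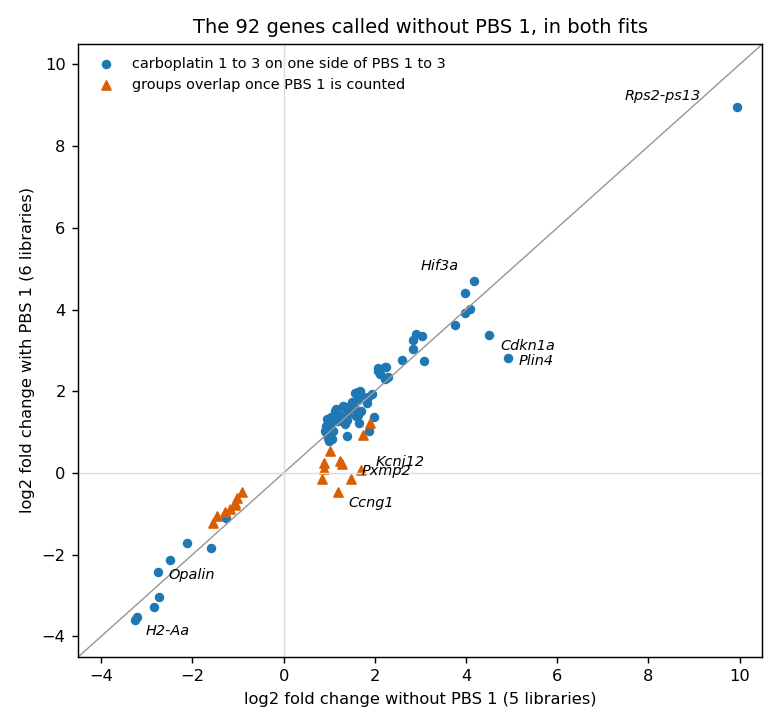
Log2 fold change of carboplatin over PBS for the 92 genes called without PBS 1, in the fit without PBS 1 (x axis, 5 libraries) and in the fit with it (y axis, 6 libraries), with the line of equal values. Triangles mark the 19 genes whose groups overlap once PBS 1 is counted, and those to the right lie below the line, down to Ccng1 at 1.19 and -0.47.

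**Figure D3:**
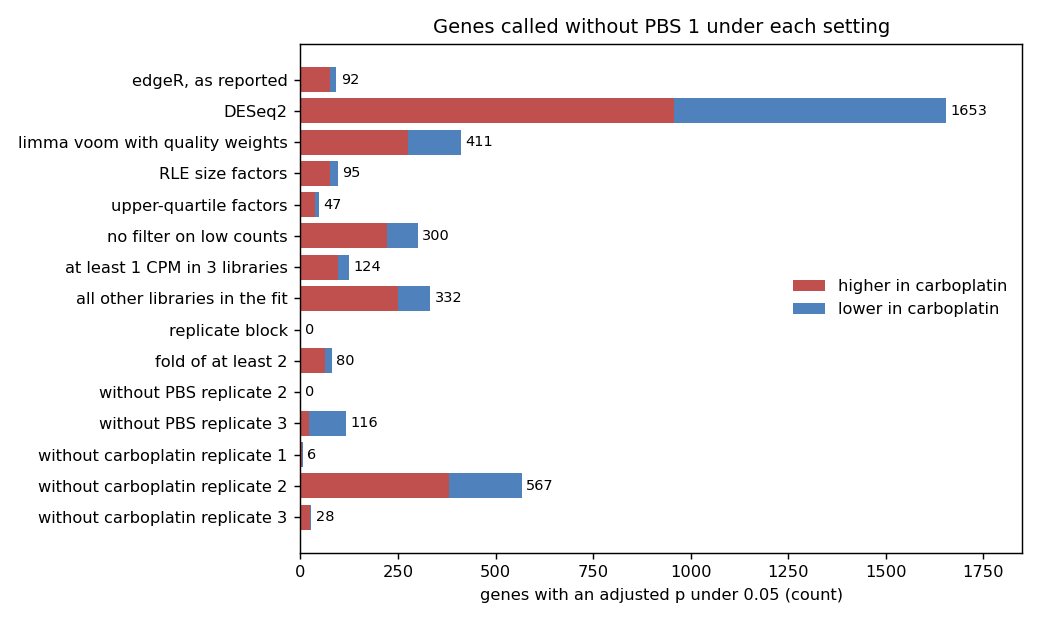
Number of genes at an adjusted p under 0.05 in the comparison without PBS 1 under each setting, with genes higher in carboplatin in red and lower in blue. The count runs from 0 (with the replicate number as a block, or without PBS 2) through 92 as reported to 1653 with DESeq2.

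Among the p53 targets, 3 of 23 rose and 0 fell without PBS 1, and with it 0 passed. By DESeq2 10 were higher and 0 lower without PBS 1, and 4 and 0 with it. The median log2 fold change of the list was 0.56 without PBS 1 and 0.33 with it, beside -0.01 and -0.10 for all genes tested, and p53 targets took 0.120% to 0.187% of the carboplatin libraries against 0.0826% to 0.150% of PBS. Cdkn1a, which encodes the p21 inhibitor of cyclin-dependent kinases, stood at 90.8, 14.1 and 23.6 CPM in PBS and 590.0, 282 and 435 CPM in carboplatin. Every carboplatin library was above every control, PBS 1 being the highest of the controls. The log2 fold change was 4.51 ± 0.46 (SE; adjusted p 0.0474) without PBS 1 and 3.36 ± 0.78 (adjusted p 0.358) with it.

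Bbc3, the gene of PUMA, a protein that promotes apoptosis, was at 5.54, 5.11 and 5.87 CPM in PBS and 14.4, 14.1 and 15.7 CPM in carboplatin. Its groups were apart and PBS 1 lay among the other controls, and both fits gave nearly the same log2 fold change, 1.40 ± 0.17 (adjusted p 0.0482) without PBS 1 and 1.41 ± 0.20 (adjusted p 0.222) with it. Ccng1, which encodes the p53-induced cyclin G1, was at 864, 109.7 and 112 CPM in PBS and 243, 238 and 289 CPM in carboplatin. PBS 1 was far above every other library here, and the log2 fold change was 1.19 ± 0.14 (adjusted p 0.0475) without it and -0.47 ± 0.84 (adjusted p 0.847) with it. The direction of Ccng1 therefore depends on PBS 1. The sestrin genes Sesn1 and Sesn2, which restrain growth signalling under stress, gave log2 fold changes of 1.02 ± 0.24 and 0.69 ± 0.14 without PBS 1, called by DESeq2 and not by edgeR. Mdm2, which encodes the ligase that degrades p53, was at 65.7, 50 and 54.7 CPM in PBS and 65.3, 65.4 and 59.3 CPM in carboplatin, and these groups overlap. Gdf15, a stress cytokine, had a log2 fold change of 3.23 ± 0.88 without PBS 1 and 1.83 ± 1.02 with it, from levels no higher than 3.05 CPM.

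Of 20 apoptosis genes, 1 rose without PBS 1 and 0 with it. It was Bcl2l1, which encodes the survival protein BCL-XL, at 86.0, 118 and 143 CPM in PBS and 386, 330.2 and 366 CPM in carboplatin, a log2 fold change of 1.45 ± 0.15 (adjusted p 0.0441) or 1.63 ± 0.26 (adjusted p 0.223) with PBS 1. The median of the list was 0.07 and 0.03 in the fits without and with PBS 1, close to that of all genes. None of 29 genes of crosslink and excision repair, 16 of DNA damage signalling and 11 of platinum and copper transport passed in either fit. Over all genes DESeq2 called 5.74% higher and 4.19% lower without PBS 1, and 2.2% and 1.15% with it. Beside these shares, 1 call in a list of this length is no result about the list. DESeq2 called 1 repair gene higher in both fits, Xpa, which encodes the damage-recognition protein of nucleotide excision repair, at no more than 13.6 CPM in PBS and 23.1, 17.7 and 23.1 CPM in carboplatin. It called 1 transport gene lower without PBS 1, Abcc5, an export pump of nucleotide analogues, with a log2 fold change of -0.69 ± 0.16 and groups that overlap once PBS 1 is counted. It also called 1 signalling gene lower without PBS 1, Trp53bp1, whose product marks DNA double-strand breaks, with a log2 fold change of -0.66 ± 0.16. The medians of the repair list were 0.01 without and 0.11 with PBS 1.

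Cell cycle genes gave lower values in carboplatin and none of the 28 tested passed in edgeR's test in either fit. At an unadjusted p under 0.05, 10 were lower without PBS 1 and 13 with it, and 0 higher, and DESeq2 called 4 and 8 lower. All 3 carboplatin libraries were below all 3 PBS libraries for 14 of 28, against 7.68% of all genes tested. The median was -0.70 without PBS 1 and -1.57 with it, so PBS 1 moved it by over 1.5 times. Mki67, a marker of dividing cells, was at 20.7, 3.01 and 3.74 CPM in PBS and 0.756, 0.245 and 0.634 CPM in carboplatin, with PBS 1 the highest of all. Its log2 fold change was -2.63 ± 0.54 (adjusted p 0.103) without PBS 1 and -4.02 ± 0.96 (adjusted p 0.379) with it. The topoisomerase gene Top2a gave -2.10 ± 0.34 and -3.29 ± 0.76, and the kinetochore gene Cenpf -2.73 ± 0.43 and -3.62 ± 0.69. In bulk RNA, fewer cells of a type and less RNA per cell cannot be told apart. Of 26 promoters of these genes, 76.9% held the letters of a cell cycle homology region (TTTGAA or TTTAAA on either strand), against 27.6% of all promoters, and 80.8% a CCAAT box.

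The glucocorticoid response genes had the largest positive median of the pathway lists in both fits. Of 13 tested, 3 rose without PBS 1 and 0 with it, and DESeq2 called 10 higher in both fits, with 1 lower without PBS 1 and 0 with it. All carboplatin libraries stood above all PBS libraries for 10 of 13 and below them for 1, against 10.1% and 7.68% of all genes. The median log2 fold change was 1.95 without and 2.25 with PBS 1, and the list took 0.265% to 0.458% of the counts of carboplatin against 0.0549% to 0.117% of PBS. The list was written with results of these data known and is no independent evidence of its direction.

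Fam107a, an actin-associated gene induced by stress and glucocorticoids, was at 36.4, 143 and 124 CPM in PBS and 962, 883 and 1063 CPM in carboplatin. Its groups were far apart, and the log2 fold change was 2.84 ± 0.18 (adjusted p 0.00813) without PBS 1 and 3.25 ± 0.57 (adjusted p 0.256) with it. Tsc22d3, which encodes the glucocorticoid-induced leucine zipper GILZ, was at 127, 95.9 and 113 CPM in PBS and 289, 254 and 288 CPM in carboplatin. It rose by 1.38 ± 0.14 on the log2 scale (adjusted p 0.0407), or gave 1.30 ± 0.18 (adjusted p 0.223) with PBS 1. Zbtb16, which encodes the zinc finger factor PLZF, was at 20.1, 9.71 and 11.7 CPM in PBS and 111, 62.4 and 101 CPM in carboplatin, with a log2 fold change of 3.07 ± 0.30 (adjusted p 0.0441) or 2.73 ± 0.37 (adjusted p 0.219).

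Carboplatin 2 was the lowest treated library for Fkbp5, Sgk1, Map3k6, Sult1a1 and Ddit4, as it was for Zbtb16. Fkbp5, whose product restrains the glucocorticoid receptor as a co-chaperone, was at 25.5, 43.0 and 62.2 CPM in PBS and 541, 233 and 531 CPM in carboplatin. The groups were apart, and the log2 fold change was 3.03 ± 0.47 (adjusted p 0.0723) without PBS 1 and 3.31 ± 0.51 (adjusted p 0.223) with it. The kinase gene Sgk1 was at 142, 194 and 283 CPM in PBS and 1245, 816 and 1190 CPM in carboplatin, a log2 fold change of 2.16 ± 0.29 without PBS 1, with an adjusted p just above 0.05 and so not called. Map3k6, Sult1a1 and Ddit4, which encodes an inhibitor of the growth kinase complex mTORC1, gave 3.42 ± 0.46, 2.53 ± 0.51 and 1.95 ± 0.36 and were called by DESeq2 alone. Nr3c1, the gene of the receptor itself, was at 119, 137 and 156 CPM in PBS and 117, 118 and 119 CPM in carboplatin. It was the gene that DESeq2 called lower without PBS 1, with a log2 fold change of -0.34 ± 0.11. Klf9, a Krüppel-like factor induced by glucocorticoids, and Errfi1, a feedback inhibitor of the EGF receptor, gave 1.13 ± 0.25 and 1.27 ± 0.40, again with carboplatin 2 the lowest of the treated libraries. The full palindrome of the receptor, AGAACA and TGTTCT with NNN between them on either strand, stood in 1 of 21 promoters of the list and in 3 of all 32851.

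Of 7 metallothionein and zinc genes, 1 rose without PBS 1 and 0 with it, and DESeq2 called 3 higher in both fits. The list had a median of 0.79 without PBS 1 and 1.00 with it and took 0.203% to 0.272% of the counts of carboplatin against 0.0370% to 0.114% of PBS. Mt1, the metallothionein gene whose promoter is printed above, was at 178, 402 and 456 CPM in PBS and 1334, 1635 and 1218 CPM in carboplatin. It rose by 1.68 ± 0.20 on the log2 scale (adjusted p 0.0474), or gave 2.00 ± 0.43 (adjusted p 0.315) with PBS 1. Mt2, its neighbour on chromosome 8, was at 85.1, 209 and 226 CPM in PBS and 499, 595 and 381 CPM in carboplatin, with a log2 fold change of 1.15 ± 0.21 (adjusted p 0.0876). Mt3, the brain metallothionein, gave 0.79 ± 0.30 and the zinc importer gene Slc39a14 0.89 ± 0.12, and both had groups that did not overlap. PBS 1 was the lowest control for Mt1, Mt2, Mt3 and Slc39a14, and each of their log2 fold changes was larger with it.

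MHC class II genes, whose products present peptides to CD4+ T cells, had 4 of the 17 calls of lower genes. Of 10 class II genes, 4 fell without PBS 1 and 0 with it. DESeq2 called 5 lower and 0 higher in both fits. All carboplatin libraries were below all PBS libraries for 7 of 10, against 7.68% of all genes tested. The median was -1.75 without and -1.86 with PBS 1. H2-Eb1, a class II beta chain whose gene overlaps Gm20513 on the other strand, was at 97.8, 59.2 and 51.0 CPM in PBS and 6.56, 5.99 and 5.61 CPM in carboplatin. Carboplatin libraries lay close together and far under every control, and the log2 fold change was -3.21 ± 0.14 (adjusted p 0.00512) without PBS 1 and -3.52 ± 0.29 (adjusted p 0.0526) with it.

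H2-Aa, a class II alpha chain (chr17:34282744-34287823), was at 96.0, 49.0 and 53.6 CPM in PBS and 6.50, 4.36 and 5.34 CPM in carboplatin. Its log2 fold change was -3.27 ± 0.19 (adjusted p 0.0076), or -3.61 ± 0.33 (adjusted p 0.0823) with PBS 1. Cd74, the invariant chain that guards the groove of class II molecules, was at 239.9, 129 and 146 CPM in PBS and 24.8, 18.3 and 19.8 CPM in carboplatin, and fell by 2.73 ± 0.16 on the log2 scale (adjusted p 0.0076), or gave -3.03 ± 0.29 (adjusted p 0.0911) with PBS 1. H2-Ab1, the partner of H2-Aa, was at 115, 53.9 and 52.8 CPM in PBS and 9.94, 5.26 and 7.41 CPM in carboplatin, and fell by 2.84 ± 0.27 (adjusted p 0.037), or gave -3.28 ± 0.42 (adjusted p 0.214) with PBS 1. For all 4 genes PBS 1 was the highest library, and the controls outside the fits stood beside PBS 2 and 3, with H2-Eb1 at 74.6, 55.9 and 59.6 CPM in PBS 4 to 6. Ciita, their coactivator, was at 4.00, 3.10 and 3.44 CPM in PBS and 0.907, 0.163 and 0.134 CPM in carboplatin. Its log2 fold change of -3.01 ± 0.85 (adjusted p 0.18) was called by DESeq2 and not by edgeR. H2-DMa, which helps load peptides, gave -0.77 ± 0.24 (adjusted p 0.205).

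Markers of immune cells gave lower values for some cell types and not for others. Beside the counts below, 10.1% of all genes tested lay above all controls and 7.68% below them. Over all genes DESeq2 called 4.19% lower without PBS 1 and 1.15% with it. Of 10 lymphocyte genes 0 were called by edgeR, 4 had all carboplatin libraries below all controls, and the list took 0.00132% to 0.00230% of carboplatin against 0.00258% to 0.00340% of PBS, with no member at 0 in every library of a group. Border macrophage and monocyte genes took 0.00554% to 0.0179% of carboplatin, 0.0121% and 0.0180% of PBS 2 and 3 and 0.0620% of PBS 1. Of 14, 0 were called without PBS 1, and 6 lay below all controls. The median was -0.54 without PBS 1, where 5 of 14 had a positive log2 fold change, and -1.30 with it, where 0 of 13 had. Ccr2, a chemokine receptor of monocytes, was at 7.82, 5.40 and 7.24 CPM in PBS and 1.57, 0.611 and 1.10 CPM in carboplatin, a log2 fold change of -2.54 ± 0.45 (adjusted p 0.0802). Siglec1, a sialic acid receptor of macrophages, gave -1.10 ± 0.30. Homeostatic microglia genes took 0.143% to 0.189% of carboplatin, against 0.195% and 0.222% of PBS 2 and 3 and 0.0689% of PBS 1. Of the 20, 0 were called by edgeR and 1 by DESeq2, the Fc receptor-like gene Fcrls, at 19.7, 19.3 and 18.2 CPM in PBS and 3.60, 7.58 and 2.40 CPM in carboplatin. Genes of disease-associated microglia took more of carboplatin, 0.886% to 0.956% against 0.411% to 0.752% of PBS. Of these 15, 0 were called by edgeR in either fit, and 3 lay above all controls and 1 below. The medians were 0.04 without and -0.03 with PBS 1, so the larger share did not show in the median member. Of 22 interferon response genes 0 passed, 11 lay below all controls and 1 above, and DESeq2 called 5 lower with PBS 1 and 6 without it. Of 11 class I genes 0 were called by edgeR, with medians of -0.28 without and -0.77 with PBS 1. By DESeq2 1 of them was lower in each fit, the immunoproteasome gene Psmb9 without PBS 1 and the coactivator gene Nlrc5 with it. How much of the class II difference went with the number of such cells was not tested.

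Red blood cell genes were also low in carboplatin. All 5 tested members lay below every control, against 7.68% of all genes tested. DESeq2 called 5 of 5 lower and edgeR 0 in both fits, with medians of -3.46 without and -4.22 with PBS 1. Hba-a1, an alpha globin gene, was at 394, 266 and 95.1 CPM in PBS and 5.68, 10.1 and 36.9 CPM in carboplatin. The list took 0.00125% to 0.00808% of carboplatin, 0.0247% to 0.0927% of PBS 1 to 3 and 0.225% to 0.819% of PBS 4 to 6, so the controls differed widely among themselves. The beta globin gene Hbb-bs gave -3.46 ± 1.00. Globin genes have near-identical neighbours among which reads can be split, so single values are uncertain.

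**Figure D4:**
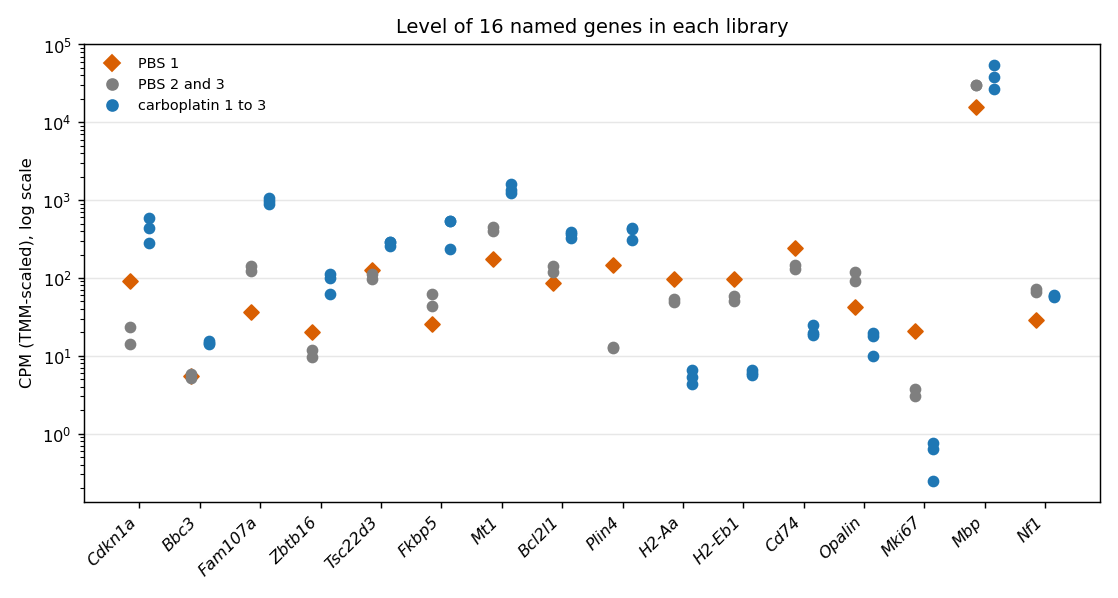
Level in CPM (TMM-scaled, log scale) of 16 named genes in each library, with a diamond for PBS 1, grey points for PBS 2 and 3 and blue points for carboplatin 1 to 3. The carboplatin points of Cdkn1a, Fam107a, Zbtb16 and Fkbp5 lie above every control, those of H2-Aa, H2-Eb1, Cd74 and Opalin below, and those of Mbp and Nf1 overlap the controls.

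The difference in the myelin genes depended on PBS 1. Of 16 myelin structure genes 1 fell without PBS 1 and 0 with it. The median was -0.40 without PBS 1 and -0.03 with it, beside -0.01 and -0.10 for all genes tested. The median of the list was thus below that of all genes only without PBS 1. A positive log2 fold change was found for 3 of the 16 without PBS 1 and 7 with it, and an unadjusted p under 0.05 for 5 lower genes and 2 lower genes, with 0 higher in both. The gene that fell was Opalin, a membrane protein of mature oligodendrocytes, at 42.3, 91.3 and 120.0 CPM in PBS and 18.2, 19.5 and 10 CPM in carboplatin. All carboplatin libraries lay below all controls, with a log2 fold change of -2.76 ± 0.31 (adjusted p 0.0482) or -2.43 ± 0.47 (adjusted p 0.289) with PBS 1. Mbp was at 15500, 30376 and 30005 CPM in PBS and 26548, 54837 and 38270 CPM in carboplatin, with overlapping groups and log2 fold changes of 0.38 ± 0.40 and 0.64 ± 0.53. DESeq2 called 0 of the 16 higher in either fit, 3 lower without PBS 1 and 1 lower with it, which was Opalin.

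Other oligodendrocyte lists held no edgeR call. Of 17 genes of mature oligodendrocytes DESeq2 called 2 higher and 6 lower without PBS 1, and 1 and 1 with it, with medians of -0.58 and -0.25. Apod, a lipid carrier, was at 713, 1199 and 1784 CPM in PBS and 8966, 6329 and 12757 CPM in carboplatin, a log2 fold change of 2.63 ± 0.41 (adjusted p 0.065) with no overlap between the groups. Anln, an actin-binding gene of myelin septin filaments, gave 0.92 ± 0.17. Ugt8a, which makes the myelin lipid galactocerebroside, was at 176, 423 and 688 CPM in PBS and 126, 236 and 132 CPM in carboplatin, a log2 fold change of -1.77 ± 0.35 (adjusted p 0.103). Il33, an alarmin of oligodendrocytes, was at 130.3, 131 and 196 CPM in PBS and 53.7, 91.9 and 46.2 CPM in carboplatin, a log2 fold change of -1.38 ± 0.34 (adjusted p 0.154) with no overlap. The medians of 14 precursor genes (-0.17 and 0.20 without and with PBS 1), 10 genes of newly formed oligodendrocytes (-0.07 and 0.20) and 11 oligodendrocyte transcription factors (-0.04 and 0.32) changed sign with PBS 1. Nf1 itself was at 29.0, 72.1 and 66.7 CPM in PBS and 60.0, 57.4 and 58.8 CPM in carboplatin, with log2 fold changes of -0.26 ± 0.10 without and 0.06 ± 0.36 with PBS 1. The Nf1 gene overlaps genes on the other strand, among them Omg, so reads may be shared.

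Cholesterol synthesis genes gave lower values together and none of the 25 passed edgeR's test. Without PBS 1, DESeq2 called 18 lower and 0 higher, and with it 3 and 0. At an unadjusted p under 0.05 the counts were 19 and 10 lower, and 0 higher in both. The medians were -0.74 and -0.60, and the list took 0.154% to 0.179% of carboplatin against 0.301% and 0.362% of PBS 2 and 3 and 0.134% of PBS 1. Dhcr7, the last reductase of the pathway, was at 36.3, 55.7 and 63.7 CPM in PBS and 30, 27.5 and 22.4 CPM in carboplatin, a log2 fold change of -1.19 ± 0.15 without and -0.97 ± 0.27 with PBS 1. Hmgcs1, an early synthase of the pathway, gave -1.48 ± 0.26 (adjusted p 0.0789). Insig1, which holds back the sterol-regulated factor SREBP, was the only member with a positive log2 fold change in the fit without PBS 1, 0.28 ± 0.21. A CCAAT box stood in 16 of 20 promoters of these genes (80%), beside the 37.4% of all promoters.

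Astrocyte genes gave mostly higher values in carboplatin. Of 20, 1 rose without PBS 1 and 0 with it, and DESeq2 called 7 higher without PBS 1 and 3 with it. All carboplatin libraries were above all controls for 12 and below for 0, against 10.1% and 7.68% of all genes. The medians were 0.36 and 0.72. Agt, which encodes the precursor of angiotensin, was at 96.5, 353 and 289 CPM in PBS and 1055, 871 and 979 CPM in carboplatin, a log2 fold change of 1.57 ± 0.18 (adjusted p 0.0474), or 1.96 ± 0.52 (adjusted p 0.413) with PBS 1. The glycolytic gene Aldoc was at 93.1, 598 and 346 CPM in PBS and 1306, 1357 and 1077 CPM in carboplatin, and gave 1.38 ± 0.28 (adjusted p 0.103). Htra1, a secreted protease gene, gave 1.83 ± 0.34 (adjusted p 0.092). Serpina3n, a serpin of reactive astrocytes, gave 1.29 ± 0.26 (adjusted p 0.0989), and 0 of 15 reactive astrocyte genes passed. All astrocyte genes listed took 2.05% to 2.22% of carboplatin, 1.84% and 2.00% of PBS 2 and 3 and 0.593% of PBS 1.

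Of 15 endothelial genes 0 passed in edgeR's test, and DESeq2 called 7 higher without PBS 1 and 2 with it. The median turned from 0.62 without PBS 1 to -0.09 with it. Mfsd2a, the lipid transporter of the blood-brain barrier, was at 7.40, 11.5 and 9.57 CPM in PBS and 93.4, 45.3 and 84.3 CPM in carboplatin. The groups did not overlap, and the log2 fold change was 2.80 ± 0.37 (adjusted p 0.0569) without and 2.96 ± 0.36 (adjusted p 0.175) with PBS 1. The glucose transporter gene Slc2a1 was at 62.0, 167 and 191 CPM in PBS and 355, 379 and 342 CPM in carboplatin, a log2 fold change of 0.98 ± 0.13. The von Willebrand factor gene Vwf gave 1.16 ± 0.22 (adjusted p 0.0911). Emcn, the gene of the surface protein endomucin, turned with PBS 1, from 1.81 ± 0.26 without it to -0.20 ± 0.96 with it. Endothelial genes took 0.0836% to 0.117% of carboplatin, above the 0.0596% to 0.0675% of PBS 1 to 3. They took 0.0865%, 0.0770% and 0.0683% of PBS 4 to 6, so PBS 4 lay above carboplatin 2, at 0.0836%.

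**Figure D5:**
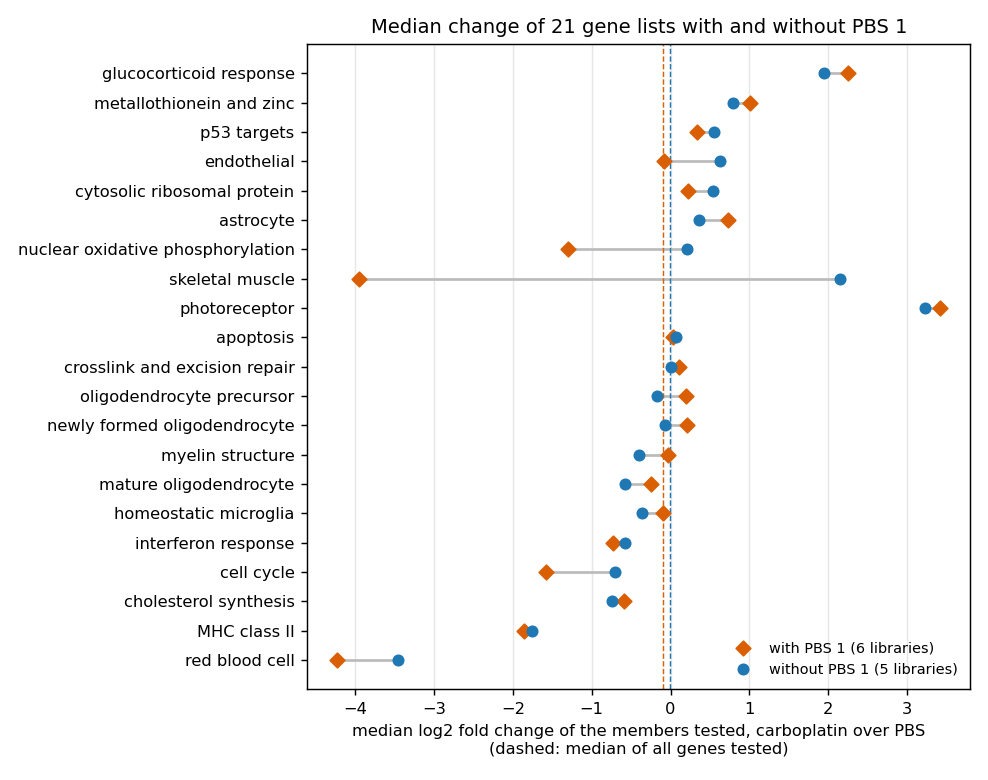
Median log2 fold change of carboplatin over PBS for the tested members of 21 gene lists, with diamonds for the fit with PBS 1, points for the fit without it and dashed lines for the median of all genes tested (-0.10 and -0.01). Glucocorticoid response, metallothionein, photoreceptor, MHC class II, cholesterol synthesis and red blood cell genes kept their side of 0, while skeletal muscle genes went from -3.96 to 2.15.

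Slc25a33 was the only protein-coding gene called in both fits. It encodes a carrier of pyrimidine nucleotides into mitochondria (ENSMUSG00000028982, chr4:149744036-149774277, minus strand). Its level was 32.4, 34.5 and 36.3 CPM in PBS and 165, 167 and 199.7 CPM in carboplatin. PBS 1 lay with the other controls, and the log2 fold change was 2.30 ± 0.14 (adjusted p 0.00804) without it and 2.36 ± 0.17 (adjusted p 0.0338) with it. Gm13068, an antisense gene within Slc25a33, was called as well, with log2 fold changes of 2.22 ± 0.12 and 2.31 ± 0.17. The strand setting of the counting was not given, so reads of the pair cannot be told apart.

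The other protein-coding genes with the smallest p among those that rose were Zfand4, Plin4, Mertk and Hif3a, beside Fam107a. Zfand4, which encodes a zinc finger protein with a ubiquitin-like domain, was at 0.744, 3.18 and 3.28 CPM in PBS and 52.6, 43.7 and 58.1 CPM in carboplatin, a log2 fold change of 3.97 ± 0.19 (adjusted p 0.00512) or 4.40 ± 0.61 (adjusted p 0.223) with PBS 1. Plin4, which encodes a coat protein of lipid droplets, was at 145, 12.4 and 13.1 CPM in PBS and 427, 305 and 439.9 CPM in carboplatin, a log2 fold change of 4.91 ± 0.24 (adjusted p 0.00512) or 2.81 ± 1.05 (adjusted p 0.536) with PBS 1. PBS 1 alone among the controls stood over 100 CPM for Plin4, and muscle and fat both express this gene. The adipocyte list, which holds Plin4, took 0.0285% to 0.0433% of carboplatin, 0.0346% of PBS 1 and at most 0.00176% of PBS 2 and 3. Plin4 itself made up most of that share in carboplatin and not in PBS 1, so the share is no separate measure of fat RNA. Of the 4 list members tested, 1 had a positive log2 fold change with PBS 1 and 4 without it.

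Mertk, a receptor for the clearance of dying cells and myelin debris, was at 10.6, 18.8 and 18.4 CPM in PBS and 51.4, 57.6 and 51.9 CPM in carboplatin, and rose by 1.51 ± 0.12 on the log2 scale (adjusted p 0.0221), or gave 1.74 ± 0.27 (adjusted p 0.223) with PBS 1. Hif3a, an alpha subunit of hypoxia-inducible factors, was at 0.279, 2.55 and 3.28 CPM in PBS and 64.3, 37.0 and 60.7 CPM in carboplatin, and rose by 4.18 ± 0.33 (adjusted p 0.0294), or gave 4.70 ± 0.87 (adjusted p 0.268) with PBS 1. Of the 15 hypoxia genes no other passed, and the median of that list was 0.08 without and -0.34 with PBS 1. Klf15, a transcription factor of fasting, rose by 1.85 ± 0.23 (adjusted p 0.0482) and Smox, which oxidises spermine, by 1.47 ± 0.13 (adjusted p 0.0327). Both had groups that did not overlap, and with PBS 1 they gave 1.85 ± 0.22 and 1.57 ± 0.19 (adjusted p 0.169 for both). Crtac1 had the smallest p outside class II among the genes that fell and whose groups did not overlap with PBS 1 counted. It encodes a secreted matrix protein and was at 4.00, 12.4 and 17.7 CPM in PBS and 3.81, 3.55 and 3.24 CPM in carboplatin. Its log2 fold change was -2.11 ± 0.23 (adjusted p 0.0474) without PBS 1 and -1.70 ± 0.56 (adjusted p 0.493) with it.

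For 16 of the 92 genes both fits differed by more than 0.5 on the log2 scale. Kcnj12, an inward-rectifier potassium channel gene, was at 64.7, 8.42 and 8.79 CPM in PBS and 24.3, 34.2 and 26.2 CPM in carboplatin, and Pxmp2, a peroxisomal membrane gene, at 67.9, 8.33 and 9.74 CPM and 25.5, 25.4 and 25.4 CPM. In both, PBS 1 exceeded every carboplatin library, and the log2 fold changes of 1.69 ± 0.19 and 1.47 ± 0.14 without PBS 1 became 0.07 ± 0.82 and -0.15 ± 0.81 with it. Among genes that fell, both fits lay within 0.5 of each other. Tmem178b gave -0.91 ± 0.10 without and -0.48 ± 0.55 with PBS 1. The ring finger gene Rnf112 gave -1.01 ± 0.11 and -0.61 ± 0.49, and B3gat1, which makes the HNK-1 carbohydrate, -1.45 ± 0.15 and -1.06 ± 0.48. Tmem178b, Rnf112 and B3gat1 had their lowest level of all in PBS 1. The muscle list took 8.71% of that library, and the part of muscle RNA in these 5 genes was not tested.

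A group of processed pseudogenes, chosen for mention after their values were seen, stood at the top of the calls. Rps2-ps13, a pseudogene of a ribosomal protein gene on chromosome X, was at 0.791, 0.167 and 0.197 CPM in PBS and 145, 229.6 and 186 CPM in carboplatin, a log2 fold change of 9.93 ± 0.35 (adjusted p 0.00306) without PBS 1. The controls outside the fits were not alike: PBS 4 stood at 195, PBS 5 at 0.371 and PBS 6 at 95.8 CPM. Gm15487 and Gm9825, called in both fits with log2 fold changes of 3.98 ± 0.22 and 4.09 ± 0.25 without PBS 1, had the same order, with 26.8, 0.989 and 12.5 CPM and 17.4, 0 and 6.51 CPM in PBS 4 to 6. These 3 were among the 4 genes that did not exceed all of PBS 4 to 6. Wide differences in these copies were thus found among untreated controls alone. Whether treated and control mice differed in them apart from treatment was not tested and cannot be told here. Reads of such copies can be shared with their parent genes, so the values are uncertain. Of 30 cytosolic ribosomal protein genes, 0 passed in edgeR's test and DESeq2 called 12 higher without PBS 1 and 1 with it. Rpl30, the member with the smallest p, gave 0.99 ± 0.15 (adjusted p 0.0639).

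Genes of tissues next to the nerve differed strongly between single libraries. Myh4, a fast muscle myosin, was at 11553 CPM in PBS 1, 14.6 and 32.4 CPM in PBS 2 and 3 and 240.4, 147 and 13.1 CPM in carboplatin. All 24 muscle genes had a negative log2 fold change with PBS 1 and all 24 a positive one without it. Rpe65, of the pigment epithelium, was at 0.233, 5.44 and 0.524 CPM in PBS and 11.4, 261 and 51.5 CPM in carboplatin. Of 20 photoreceptor and 14 pigment genes 0 passed in either fit, with medians of 3.23 and 4.17 without PBS 1 and 3.42 and 4.64 with it. Each of these genes had a positive log2 fold change in both fits. All carboplatin libraries exceeded all controls for 4 of the 20 and 9 of the 14, against 10.1% of all genes tested. Gad2, which makes the transmitter GABA, was at 0.186, 98.2 and 1.87 CPM in PBS and 1.66, 0.897 and 1.00 CPM in carboplatin, so a single control, PBS 2, held nearly all of it. Nuclear genes of oxidative phosphorylation, abundant in muscle, had a positive log2 fold change for 0 of 29 members with PBS 1 and for 28 without it.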

How the data were processed

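RNA-seq of mouse optic nerve was compared between 3 carboplatin libraries and PBS libraries 1 to 3. The authors deposited whole-number read counts per gene. The submitters' processing notes name build mm10 and the tools STAR, HTSeq, Trimmomatic, FastQC and DESeq2, with versions, settings and strand option not given in the sources used here. Counts were tested as deposited in R 4.3.3 with edgeR 4.0.16 (TMM factors, robust quasi-likelihood fit, filterByExpr with a minimum count of 10 and a total of 15, Benjamini-Hochberg adjustment), after a check on simulated data. The same fit was run with PBS 2 and 3 alone as controls. SE is the log2 fold change divided by the square root of the F statistic. DESeq2 1.42.0, limma 3.58.1 (voom) and other settings were alternatives. CPM values use TMM factors over all 12 libraries. Gene positions came from GENCODE M21 for 34490 of the 35275 genes, and 880 of 882 genes in 58 lists were matched (878 by symbol, 1 by identifier and 1 by synonym). List members under the filter were not tested.

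The text names genes by these rules: those called in both fits or, where a direction had fewer than 5, the 5 lowest p-values without PBS 1, in both cases among genes whose mean level was 1 log2 CPM or more, with groups that did not overlap with PBS 1 counted and no predicted, clone, Riken or pseudogene symbol; members of a list, first those called and then those with the smallest p; Nf1, Cdkn1a, Fkbp5, Mt1, H2-Aa, Mki67, Opalin, Mbp and 1 more gene that is not reported here; and up to 5 genes in each direction on which the fits differed most, at a mean level of 3 log2 CPM or more. The lists and the comparison were chosen with earlier results of these data known. Replicate numbers were not taken as pairs of libraries, and whether they mark pairs is not known. Depth, from 22558698 to 33375754 counts, limits what could be seen for genes near the filter.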

Additional observations from a re-analysis of the deposited data

How the results depend on the processing

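With PBS 1 to 3 as controls edgeR called 4 genes. The count was 562 with DESeq2, 565 with voom and quality weights, 9 with upper-quartile factors, 8 without a filter, 112 with the other 6 libraries in the fit, 8 with Y-linked expression and 12 with the muscle share as a covariate. Leaving out 1 library gave 0 to 92 (92 without PBS 1, 0 otherwise). For carboplatin against PBS 2 and 3 edgeR called 92, against 1653 with DESeq2, 411 with voom, 47 with upper-quartile factors, 300 without a filter and 332 with the other libraries in the fit. Leaving out 1 library there gave 0 (without PBS 2) to 567 (without carboplatin 2), with 116 (22 higher, 94 lower) without PBS 3, 6 without carboplatin 1 and 28 without carboplatin 3. With a single PBS library left, it is assumed to vary like the carboplatin group. All 92 genes kept their sign in every setting run on that fit. RLE factors gave 4 and 95, and a fold change of at least 2 gave 4 and 80. Why the counts differed was not tested.

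With the replicate number as a block 0 genes were called in either comparison. Same-numbered libraries correlated at 0.267, 0.0144 and 0.329 in their deviations from the group means, and the other pairs at -0.278 to 0.150. Carboplatin 2 correlated at 0.0325 with PBS 1, slightly above its value with PBS 2. PBS 1 and carboplatin 1 were also alike in holding 0 counts of the Y-linked genes. The numbers were not taken as pairs, and whether they mark pairs is not known. In the comparison with PBS 1 the replicate block gave log2 fold changes of 0.29 for Ccng1, 0.58 for Pxmp2, 0.21 for Idh2 and 0.76 for Emcn.

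Directions that turned were all in the comparison with PBS 1. Ccng1 gave 1.14 with voom, 0.30 with the Y-linked and 0.68 with the muscle covariate, 1.23 with only the libraries that held Y-linked counts, and -0.89 to 1.19 when 1 library was left out. Pxmp2 gave 1.37, 0.58, 0.95, 1.47 and -0.57 to 1.47 under the same settings. Idh2 gave 0.78, 0.21, 0.48, 0.85 and -0.46 to 0.85. Myh4, carboplatin against PBS 1 to 3, gave 0.62, 0.22, 0.19, 1.74 and -5.56 to 2.48. Emcn gave 1.56 with voom, 0.78 with the Y-linked and 1.19 with the muscle covariate, 1.81 with only the libraries that held Y-linked counts and -0.66 to 1.81 when 1 library was left out. Nf1 gave -0.20 with voom, -0.28 with only the libraries that held Y-linked counts and -0.26 to 0.30 when 1 library was left out. Leaving out 1 library gave -0.34 to 1.69 for Kcnj12 and -5.41 to 0.19 for Gad2. The cause was not tested. The remaining directions named in the text held.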

Other observations

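Genes of lipid synthesis outside the cholesterol pathway went both ways. Acaca, which makes malonyl-CoA for fatty acid synthesis, was at 64.6, 145 and 138 CPM in PBS 1 to 3 and 489.7, 385 and 618 CPM in carboplatin, a log2 fold change of 1.79 ± 0.23 without and 2.09 with PBS 1. Elovl6, which lengthens long-chain fatty acids, was at 44.3, 87.0 and 94.2 CPM in PBS and 28.4, 42.4 and 30.5 CPM in carboplatin, and gave -1.45 ± 0.19 and -1.17. Neither passed edgeR's test, although the groups did not overlap for either gene, and DESeq2 called 2 of the 19 genes of that list higher and 4 lower without PBS 1.

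The acute phase gene Lcn2, whose product binds iron carriers of bacteria, was at 1.86, 0.335 and 1.31 CPM in PBS and 44.6, 10.1 and 23.7 CPM in carboplatin. PBS 4 to 6 stood between, at 5.65, 6.59 and 3.65 CPM, and the log2 fold change of 4.93 ± 0.99 without PBS 1 (adjusted p 0.123) was called by DESeq2 alone. Of the other neutrophil genes DESeq2 called 0. Of 18 clock genes 0 passed edgeR's test. Dbp, an output gene of the clock, gave -1.28 ± 0.23 and Per1, a core repressor that glucocorticoids also induce, 0.68 ± 0.19 without PBS 1. Arc, an activity-induced gene of neurons, was at 13.3, 13.7 and 21.5 CPM in PBS and 2.36, 5.18 and 2.57 CPM in carboplatin, with no overlap. DESeq2 called 5.74% of all genes higher without PBS 1 and 2.2% with it, and 4.19% lower without it. Of 17 NRF2 and glutathione genes 0 passed, and DESeq2 called 2 higher in each fit and 1 lower without PBS 1, Srxn1. Those higher, the glutathione transferase gene Gstm1 and the quinone reductase gene Nqo1, gave 0.92 ± 0.16 and 0.73 ± 0.14 without PBS 1, with groups apart for both. The collagen gene Col3a1 gave -1.64 ± 0.23 without and -2.50 with PBS 1, and 0 of 15 fibroblast genes passed. None of 17 RAS pathway genes and 15 genes of ERK output passed in either fit.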
